A study of Mus musculus with 12 samples.

Results

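Yap1 and Wwtr1 encode the transcriptional coactivators YAP and TAZ, Tead1 encodes a DNA-binding factor they act through, and Ccn1, Ccn2, Ankrd1, Amotl2, Ajuba, Lats2 and Axl are genes commonly read as their outputs. These 10 genes were taken by name from the 49315 genes of the count tables, and all 10 were among the 15917 genes with enough counts to be tested. Their RNA was followed in fibroblasts grown from mouse embryos (MEFs), a common model of connective tissue cells, that were held for 24 h with 1 of 3 inhibitors of the kinase mTOR or with the solvent DMSO. Rapamycin, which acts with the protein FKBP12 mainly on mTOR complex 1, was used at 20 ng/ml. Torin1, which blocks the kinase site in both mTOR complexes, was used at 250 nM. RapaLink-1, a molecule that links rapamycin to a kinase-site inhibitor, was used at 10 nM. Each of the 4 groups had 3 libraries. The sources used here do not give strain, genotype or passage of the cells.

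Total counts ran from 30075870 to 39423703 per library, and levels are given as CPM, counts scaled to a library's effective total. Replicates varied little, with a biological coefficient of variation of 1.48%. No label ties libraries to separate cultures, and p-values therefore describe the variation among these samples alone, part or all of which may be technical. The 10 fibroblast markers summed to 18707 to 21635 CPM. That sum holds shifts in both directions. In the order DMSO, rapamycin, Torin1 and RapaLink-1, Col1a1 averaged 5549, 4459, 3541 and 3395 CPM. Vim averaged 3435, 3013, 4396 and 4703 CPM, and Fn1 4201, 5192, 8484 and 5930. Lum was nearly absent, at 1.20 CPM with DMSO. Summed markers of leukocytes stayed at or below 4.15 CPM, of endothelial cells at or below 2.93 CPM, of epithelial cells at or below 1.55 CPM, of muscle at or below 0.795 CPM and of neural cells at or below 0.320 CPM, and the muscle factors Myod1 and Myog had no counts. Summed endothelial markers lay at 0.762 to 1.56 CPM in the DMSO libraries, 1.12 to 1.56 in those of rapamycin, 2.32 to 2.48 in those of Torin1 and 2.65 to 2.93 in those of RapaLink-1. In the same order, leukocyte markers lay at 2.82 to 3.34, 2.19 to 3.52, 3.92 to 4.15 and 3.65 to 4.04 CPM. Of the endothelial markers, Kdr averaged 0.859, 0.929, 2.05 and 2.46 CPM, and Pecam1 0.129, 0.283, 0.274 and 0.143. Of the leukocyte markers, Csf1r averaged 0.365, 0.545, 1.16 and 1.16 CPM, and Cd68 2.64, 2.43, 2.82 and 2.66. The antisense gene Hmgxb3, with 23446 counts, overlaps 17.8% of the exonic bases of Csf1r. The part of these cell types in the results was not tested. The lowest level of any of the 10 genes was 95.6 CPM. In bulk RNA, fewer cells of a type and less RNA per cell cannot be told apart.

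The Hippo pathway is a kinase cascade in which MST1 and MST2 activate LATS1 and LATS2, and the LATS kinases phosphorylate YAP and TAZ, which holds them in the cytoplasm. When the cascade is quiet, YAP and TAZ enter the nucleus, bind TEAD factors and switch on genes for matrix proteins, adhesion and growth, with strong outputs in spread fibroblasts on stiff substrates. Several of these outputs, among them AMOTL2 and LATS2, restrain YAP and TAZ in turn. Control of YAP and TAZ acts largely on the proteins, which were not measured here.

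TEAD factors bind a short core, GGAATG on either strand, and the windows below show where those letters stand near the starts of these genes. RefSeq promoter windows on GRCm38.p6, from 250 bases before to 50 after a transcript start, were found for 8 of the 10 genes, Wwtr1 and Lats2 having a pair of windows each. Tead1 and Ccn2 were not matched. In 30-base stretches around each match, capitals mark the core, printed 5′ to 3′ on the strand of the gene, so that CATTCC is the core on the opposite strand. The stretches of Amotl2 and Lats2 lie inside the gene spans of the count tables, which reach further upstream than these starts, and the others lie before their genes.
Yap1, chr9:8004720-8004749, minus strand: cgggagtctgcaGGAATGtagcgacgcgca
Wwtr1, chr3:57576029-57576058, minus strand: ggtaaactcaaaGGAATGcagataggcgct
Ccn1, chr3:145650071-145650100, minus strand: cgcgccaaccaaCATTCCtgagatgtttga
Amotl2, chr9:102717727-102717756, plus strand: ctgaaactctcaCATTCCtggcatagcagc
Lats2, chr14:57746102-57746131, minus strand: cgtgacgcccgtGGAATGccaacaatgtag
Axl, chr7:25788949-25788978, minus strand: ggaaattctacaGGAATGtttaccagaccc

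Ankrd1 and Ajuba each held a pair of cores, and the 250 bases before their starts are shown whole for that reason.
Ankrd1, chr19:36119845-36120094, minus strand: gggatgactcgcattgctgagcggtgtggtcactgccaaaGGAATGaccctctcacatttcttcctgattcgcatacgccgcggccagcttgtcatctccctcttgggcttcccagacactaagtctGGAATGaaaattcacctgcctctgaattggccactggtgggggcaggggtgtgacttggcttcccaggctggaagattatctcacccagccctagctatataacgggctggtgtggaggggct
Ajuba, chr14:54577662-54577911, minus strand: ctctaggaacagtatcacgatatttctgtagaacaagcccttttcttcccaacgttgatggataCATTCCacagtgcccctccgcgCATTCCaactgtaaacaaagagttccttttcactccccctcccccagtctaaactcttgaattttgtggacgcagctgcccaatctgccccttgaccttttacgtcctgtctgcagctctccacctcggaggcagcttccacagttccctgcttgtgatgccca

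The core began 141 bases before the start of Yap1, 136 before the first start of Wwtr1, 103 before that of Ccn1 and 65 before that of Amotl2. In Axl it began 233 bases before the start, and in Lats2 it lay 5 bases after it. Ankrd1 had its pair at 210 and 123 bases before the start, both on the strand of the gene, and Ajuba at 186 and 164, both on the opposite strand. The core was in 8 of the 8 genes with a window. Counted by window, it was in 9 of the 10, the pair of Wwtr1 windows holding the same site. It was in 14.7% of all 32851 windows and in 16.6% of the 27025 genes that had one, and 1.36% of windows held more than 1. Of the 16 other genes in a YAP/TAZ target signature described below, 10 had a window and 2 held the core, Crim1 and Ptpn14. AP-1 sites, searched as TGANTCA, and the CArG box of SRF were in none of the 10 windows, against 7.81% and 1.63% of all windows. A match is a stretch of letters and not a measured site.

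**Figure D1:**
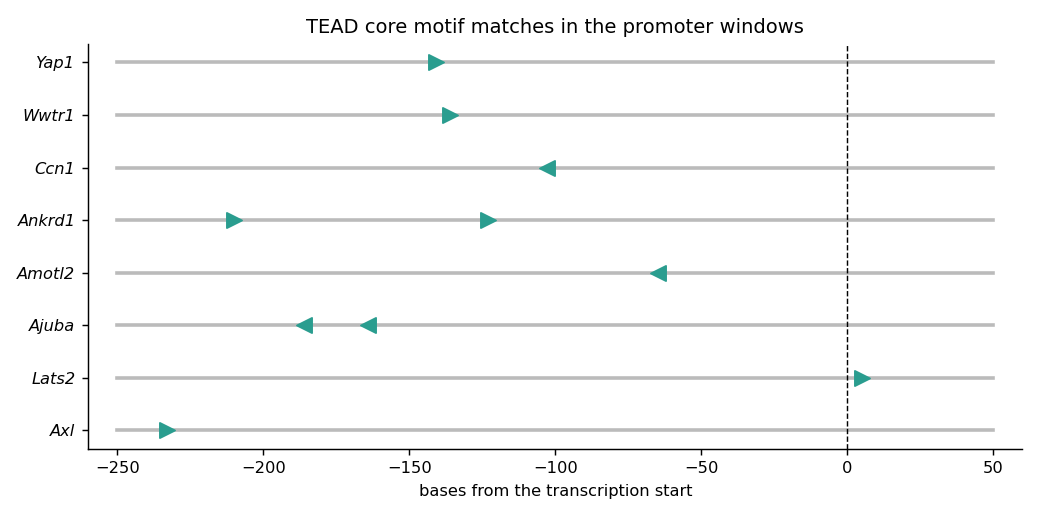
Position of each GGAATG core in the first promoter window of 8 genes. The x axis gives bases from the transcription start (dashed line), grey lines span the window searched, and triangles pointing right or left mark cores on the strand of the gene or opposite to it. Ankrd1 and Ajuba have 2 cores each, and the core of Lats2 alone lies after the start.

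The messages of the factors themselves moved little. Yap1 fell with RapaLink-1, by 0.22 on the log2 scale, and Tead1 rose with Torin1 and RapaLink-1 by 0.33 and 0.21. All other changes of Yap1, Wwtr1 and Tead1 against DMSO were of at most 0.14 in size. On the count tables' GRCm38 coordinates, Yap1 (ENSMUSG00000053110) lies on the minus strand at chr9:7931999-8004596, Wwtr1 (ENSMUSG00000027803) on the minus strand at chr3:57455649-57575910 and Tead1 (ENSMUSG00000055320) on the plus strand at chr7:112679318-112906807.

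Yap1 stood at 246, 244 and 249 CPM in the DMSO libraries (replicates 1 to 3, the order used throughout), at 239.9, 234 and 241 with rapamycin, at 222, 231 and 232 with Torin1 and at 212, 210.0 and 214 with RapaLink-1. The RapaLink-1 libraries were the lowest of the 12, and no treated library reached a DMSO library. The log2 fold changes against DMSO were -0.22 ± 0.02 (SE) for RapaLink-1 (adjusted p = 1.84e-21), -0.11 ± 0.02 for Torin1 (adjusted p = 1.33e-07) and -0.04 ± 0.02 for rapamycin (adjusted p = 0.0328). Over the 13 other ways of fitting, the RapaLink-1 value ran from -0.23 to -0.08 and was called each time, so its size depended on the fit. With upper-quartile scaling, a different way to set the library sizes, the values for Torin1 and rapamycin turned to 0.02 each and were not called. The rapamycin call was also lost without DMSO replicate 1 (-0.05), DMSO replicate 3 (-0.04) or rapamycin replicate 2 (-0.03), and with only these 2 groups in the fit (-0.02).

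Wwtr1 read 147, 147 and 138 CPM with DMSO, 152, 148 and 149 with rapamycin, 155, 161 and 158 with Torin1 and 142, 140.0 and 146 with RapaLink-1. The Torin1 libraries were the highest, and the RapaLink-1 libraries overlapped those with DMSO. Torin1 raised it by 0.14 ± 0.02 (SE, log2, adjusted p = 7.81e-09) and rapamycin by 0.06 ± 0.02 (adjusted p = 0.0176). RapaLink-1 gave -0.01 ± 0.02 (adjusted p = 0.595), with a 95% interval of -0.06 to 0.03, which upper-quartile scaling turned to a called 0.12. The rapamycin call was lost without DMSO replicate 3 (0.03) or rapamycin replicate 1 (0.05), when low counts were left unfiltered (0.05) and with DESeq2 (0.04).

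Tead1 was at 248, 254 and 252 CPM with DMSO and at 228, 242 and 239.6 with rapamycin. It was at 314, 315 and 317 CPM with Torin1 and at 295, 283 and 295 with RapaLink-1. The 6 libraries of these 2 compounds lay above the other 6 libraries, and those with rapamycin below those with DMSO. Tead1 changed by 0.33 ± 0.02 (SE, log2) with Torin1 (adjusted p = 9.32e-39), by 0.21 ± 0.02 with RapaLink-1 (adjusted p = 2.09e-21) and by -0.09 ± 0.02 with rapamycin (adjusted p = 3.24e-05). The rapamycin value was not called under upper-quartile scaling (-0.02) or among genes averaging 5 CPM or more (-0.03).

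**Figure D2:**
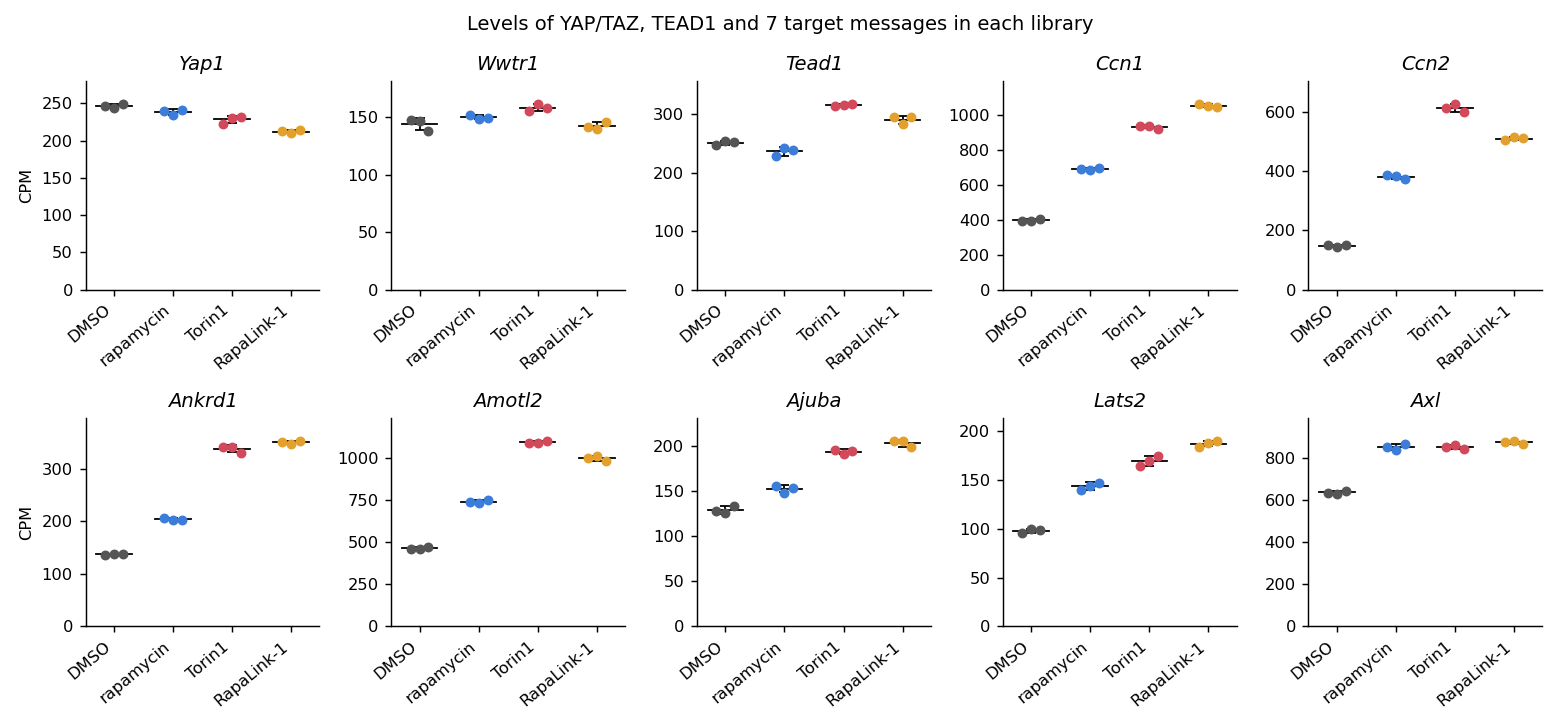
CPM of the 10 genes in the 12 libraries, 1 panel per gene, each with its own y axis from 0. Points are libraries in the order of replicates 1 to 3, horizontal lines are group means and bars are the SD (n = 3). Yap1 and Wwtr1 are nearly level across the groups, whereas Ccn2 rises from a mean of 148 CPM with DMSO to 612 CPM with Torin1.

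The 7 targets rose with each of the 3 compounds, and in each of the 21 comparisons with DMSO every treated library was above every DMSO library. Over all genes, the libraries did not overlap for 63% with rapamycin, 78.5% with Torin1 and 77.6% with RapaLink-1, and 27.5%, 39.8% and 38.7% were called higher. Summed, the 7 targets stood at 2013 ± 26.8 CPM (SD, n = 3) with DMSO, 3164 ± 30.2 with rapamycin, 4192 ± 24.0 with Torin1 and 4178 ± 27.4 with RapaLink-1. The 3 comparisons share the same DMSO libraries. All 21 rises were also called, in the same direction, under each of the 13 other ways of fitting.

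Ccn1 and Ccn2, once called Cyr61 and Ctgf, encode secreted matricellular proteins that bind integrins and are among the most used readouts of YAP and TAZ. Ccn1 (ENSMUSG00000028195) lies on the minus strand at chr3:145646976-145649981 and Ccn2 (ENSMUSG00000019997) on the plus strand at chr10:24595442-24598683. Ccn1 measured 395, 396 and 406 CPM with DMSO and 693, 683 and 695 with rapamycin. It measured 939.9, 936 and 922 CPM with Torin1 and 1062, 1052 and 1046 with RapaLink-1. None of the 4 groups overlapped, and RapaLink-1 was the highest. The rises were 0.79 ± 0.02 (SE, log2, 1.73-fold, adjusted p = 1.34e-97) with rapamycin, 1.23 ± 0.02 (2.34-fold, adjusted p = 1.96e-128) with Torin1 and 1.40 ± 0.02 (2.64-fold, adjusted p = 2.46e-137) with RapaLink-1.

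Ccn2 had the largest rise of the 10 genes with each compound. It measured 149.6, 145 and 151 CPM with DMSO and 387, 381 and 374 with rapamycin. It measured 611, 625 and 600.0 CPM with Torin1 and 504, 514 and 510.2 with RapaLink-1. The groups again stood apart, but here Torin1 was the highest, above RapaLink-1. Rapamycin raised Ccn2 by 1.36 ± 0.02 (SE, log2, 2.57-fold, adjusted p = 4.64e-121), Torin1 by 2.04 ± 0.02 (4.12-fold, adjusted p = 1.03e-151) and RapaLink-1 by 1.78 ± 0.02 (3.43-fold, adjusted p = 1.36e-141). Among all genes tested, 204 had a higher log2 fold change with rapamycin, 344 with Torin1 and 415 with RapaLink-1, between 1.28% and 2.61% of genes. Counting by strand is not stated, and 23.2% of the exonic bases of Ccn2 overlap the antisense gene Gm15270, so the value of Ccn2 is uncertain to that extent. Gm15270 itself had 385 counts over the 12 libraries against 173143 for Ccn2.

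Ankrd1 (ENSMUSG00000024803, minus strand, chr19:36111965-36119844) encodes an ankyrin repeat protein of muscle and stressed cells that shuttles to the nucleus. It was at 136, 137 and 137 CPM with DMSO and 206, 203 and 202 with rapamycin. It was at 341, 341 and 329.7 CPM with Torin1 and 351, 346 and 353 with RapaLink-1. Rapamycin libraries lay between the DMSO libraries and the other 6. The rises were 0.57 ± 0.02 (SE, log2, 1.49-fold, adjusted p = 9.48e-63) with rapamycin, 1.30 ± 0.02 (2.47-fold, adjusted p = 4.30e-118) with Torin1 and 1.36 ± 0.02 (2.56-fold, adjusted p = 1.01e-120) with RapaLink-1. The muscle markers, which summed to at most 0.795 CPM, lay at 0.263 to 0.363 CPM with DMSO, 0.288 to 0.655 CPM with rapamycin, 0.624 to 0.741 CPM with Torin1 and 0.624 to 0.795 CPM with RapaLink-1. One of these markers, Nppa, had 128 counts over all libraries. The antisense gene Gm13054, with 167 counts, overlaps 61.5% of its exonic bases. Ankrd1 stood at 337 ± 6.71 CPM (SD, n = 3) with Torin1 and 349.8 ± 3.12 CPM with RapaLink-1.

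Amotl2, Ajuba and Lats2 encode proteins that act back on the pathway, and the messages of all 3 rose. Amotl2 is an angiomotin, which holds YAP in the cytoplasm and aids LATS activation. Ajuba is a LIM protein that can bind and inhibit the LATS kinases. Lats2 is a LATS kinase. Their genes lie at chr9:102716672-102733418 on the plus strand (Amotl2, ENSMUSG00000032531), chr14:54567469-54577661 on the minus strand (Ajuba, ENSMUSG00000022178) and chr14:57642077-57758388 on the minus strand (Lats2, ENSMUSG00000021959).

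Amotl2 was at 459, 460.5 and 472 CPM with DMSO and 737, 729.9 and 748 with rapamycin. It was at 1086, 1087 and 1100.0 CPM with Torin1 and 999.8, 1011 and 983 with RapaLink-1. Like Ccn2, it was highest with Torin1. It rose by 0.67 ± 0.02 (SE, log2, 1.59-fold, adjusted p = 4.36e-88) with rapamycin, 1.23 ± 0.02 (2.35-fold, adjusted p = 1.03e-129) with Torin1 and 1.11 ± 0.02 (2.15-fold, adjusted p = 3.57e-122) with RapaLink-1.

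Ajuba had the smallest rise with rapamycin of the 7 targets. It was at 128, 126 and 134 CPM with DMSO and 156, 148 and 154 with rapamycin. It was at 196, 191 and 195 CPM with Torin1 and 206, 205 and 199 with RapaLink-1. Rapamycin raised it by 0.24 ± 0.02 (SE, log2, 1.18-fold, adjusted p = 4.31e-20), Torin1 by 0.58 ± 0.02 (1.50-fold, adjusted p = 9.43e-61) and RapaLink-1 by 0.65 ± 0.02 (1.57-fold, adjusted p = 2.36e-67).

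Lats2 was at 95.6, 99.5 and 98.2 CPM with DMSO and 139, 144 and 147 with rapamycin. It was at 164, 169.6 and 174 CPM with Torin1 and 184, 187 and 189.8 with RapaLink-1. The 4 groups did not overlap and stood in that order. The rises were 0.55 ± 0.02 (SE, log2, 1.47-fold, adjusted p = 2.25e-52), 0.79 ± 0.02 (1.73-fold, adjusted p = 1.08e-74) and 0.94 ± 0.02 (1.92-fold, adjusted p = 1.16e-85). Its exons share 4.55% of their bases with Xpo4 on the same strand, a gene with 23462 counts in the 12 libraries.

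Axl (ENSMUSG00000002602, minus strand, chr7:25757273-25788705) encodes a receptor tyrosine kinase whose ligand is Gas6. It was at 637, 632 and 646 CPM with DMSO and at 854, 841 and 869 with rapamycin. It was at 854, 866 and 847 CPM with Torin1 and at 879, 884 and 867 with RapaLink-1. The 9 treated libraries lay within 841 to 884 CPM, all above DMSO. Axl rose by 0.42 ± 0.02 (SE, log2, 1.34-fold, adjusted p = 1.17e-61) with rapamycin, 0.42 ± 0.02 (1.34-fold, adjusted p = 1.40e-62) with Torin1 and 0.46 ± 0.02 (1.37-fold, adjusted p = 3.10e-67) with RapaLink-1.

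Counted over the 10 genes, rapamycin raised 8 and lowered 2 against DMSO. Calls covered 59.7% of all genes tested in that comparison, 27.5% higher and 32.2% lower. Torin1 raised 9 and lowered 1, against 78% of all genes called, 39.8% higher and 38.3% lower. RapaLink-1 raised 8, lowered 1 and left 1 not called, against 76.7% of all genes called, 38.7% higher and 37.9% lower. The share of the 10 that was called is read against these values, and it is not far above them with Torin1 and RapaLink-1. The 10 stood at 95.6 CPM or more in every library, whereas the genes tested include some near the floor. The share among genes of like level was not computed. Groups did not overlap for 10, 10 and 9 of the 10 genes in the 3 comparisons, and for 63%, 78.5% and 77.6% of all genes. The median log2 fold change of the 10 was 0.49, 0.69 and 0.80, and that of all genes 0.00, 0.04 and 0.03. With upper-quartile scaling, which raised the median of all genes by 0.06, 0.13 and 0.14, the 10 genes gave 8 higher and 0 lower with rapamycin, 9 and 0 with Torin1 and 9 and 1 with RapaLink-1.

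**Figure D3:**
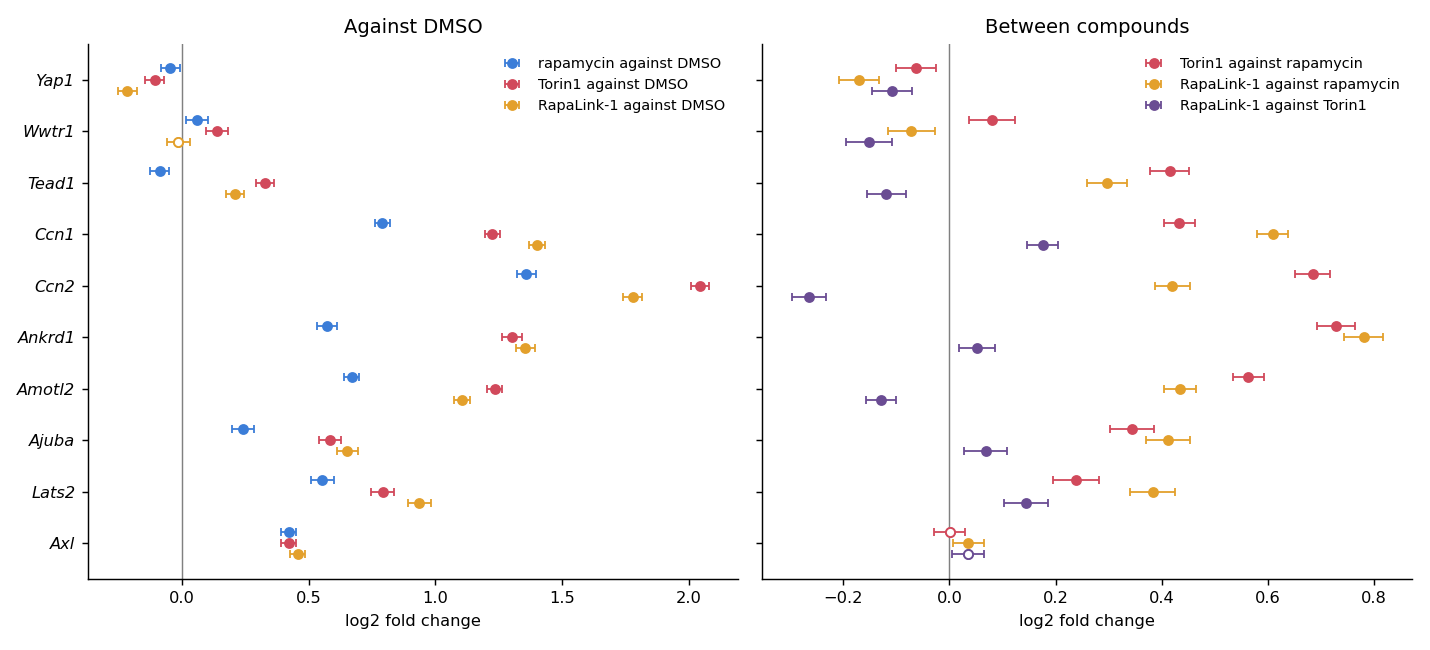
Log2 fold change of the 10 genes against DMSO (left) and between compounds (right), with 95% intervals as bars. Filled points were called at an adjusted p under 0.05 and open points were not. The 7 targets from Ccn1 to Axl lie above 0 in the left panel, and Axl lies near 0 throughout the right panel. With upper-quartile scaling, Yap1 with rapamycin and Torin1 and Wwtr1 with RapaLink-1 change sign against DMSO, as do Yap1 with Torin1 and Wwtr1 with RapaLink-1 against rapamycin.

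The compounds were set against each other at these single doses, which differ in units and size, so that each difference is between doses as much as between molecules. The 10 genes gave 60 differences in all, counting those against DMSO, and each p-value was adjusted over all genes of its comparison. Torin1 and RapaLink-1 both act at the kinase site of mTOR, and with both of them the 6 targets other than Axl were higher than with rapamycin. Against rapamycin, Torin1 had 8 of the 10 genes higher, 1 lower and 1 not called, where 67.5% of all genes were called, 34.2% higher and 33.2% lower. RapaLink-1 had 8 higher and 2 lower, where 65% were called, 32% higher and 33% lower. For 9 of the 10 genes in each of these comparisons the libraries did not overlap, as for 69.2% and 67.4% of all genes.

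The largest such difference was that of Ankrd1, 0.73 ± 0.02 (SE, log2) for Torin1 and 0.78 ± 0.02 for RapaLink-1 above rapamycin (adjusted p = 4.92e-83 and 2.54e-87). Ccn2 differed by 0.68 ± 0.02 and 0.42 ± 0.02 (adjusted p = 1.16e-85 and 6.12e-56), Ccn1 by 0.43 ± 0.02 and 0.61 ± 0.02 (adjusted p = 3.04e-64 and 8.67e-85). Amotl2 differed by 0.56 ± 0.01 and 0.43 ± 0.02, Ajuba by 0.34 ± 0.02 and 0.41 ± 0.02, and Lats2 by 0.24 ± 0.02 and 0.38 ± 0.02. Tead1 was higher by 0.42 ± 0.02 and 0.30 ± 0.02 than with rapamycin. Axl was the exception. It did not differ detectably between Torin1 and rapamycin (0.00 ± 0.01, adjusted p = 0.978, 95% interval -0.03 to 0.03), and with RapaLink-1 it was higher by 0.04 ± 0.01 (adjusted p = 0.0286, 95% interval 0.01 to 0.07), with libraries that overlapped. That last call was lost without rapamycin replicate 2 (0.02) or any 1 RapaLink-1 replicate (0.01 to 0.03), and with no filter on low counts (0.03). Upper-quartile scaling made the Torin1 difference of Axl a called 0.06. Relative to rapamycin, Yap1 stood at -0.17 ± 0.02 with RapaLink-1 and at -0.06 ± 0.02 with Torin1, the latter turning to 0.00 with no call under upper-quartile scaling. Wwtr1 was 0.08 ± 0.02 higher with Torin1, a call lost without Torin1 replicate 2 (0.05), and -0.07 ± 0.02 with RapaLink-1, a value that upper-quartile scaling turned to 0.00 with no call.

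RapaLink-1 and Torin1 differed less. RapaLink-1 had 4 of the 10 genes higher and 5 lower, with 1 not called, where 33.2% of all genes were called, 16.7% higher and 16.4% lower. Libraries did not overlap for 10 of the 10 genes and for 42.2% of all genes. Ccn1 was higher with RapaLink-1 by 0.18 ± 0.01 (SE, log2, adjusted p = 3.82e-22), Lats2 by 0.14 ± 0.02 (adjusted p = 3.01e-09), Ajuba by 0.07 ± 0.02 (adjusted p = 0.00498) and Ankrd1 by 0.05 ± 0.02 (adjusted p = 0.0130). The call of Ankrd1 was lost without Torin1 replicate 3 (0.04). Ccn2 was lower with RapaLink-1, at -0.26 ± 0.02 (adjusted p = 8.83e-34), as were Amotl2 at -0.13 ± 0.01 (adjusted p = 7.61e-14), Wwtr1 at -0.15 ± 0.02, Tead1 at -0.12 ± 0.02 and Yap1 at -0.11 ± 0.02. Ccn1 and Ccn2, both of the CCN family, thus differed in opposite directions between these 2 compounds. Axl gave 0.04 ± 0.01 (adjusted p = 0.0576, 95% interval 0.01 to 0.06) and was not called, but it was called at 0.05 without Torin1 replicate 2, without RapaLink-1 replicate 3, with RLE or upper-quartile factors and with DESeq2.

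Levels of different genes were compared per length, as CPM per kilobase of exons (FPKM). With DMSO, Ccn1 was the highest at 198 ± 3.21 FPKM (SD, n = 3), followed by Axl at 127 ± 1.39, Ankrd1 at 77.5 ± 0.304 and Amotl2 at 73.8 ± 1.11. Ccn2 came next at 51.9 ± 1.08 FPKM, then Ajuba at 36.9 ± 1.18, Wwtr1 at 30.1 ± 1.13 and Yap1 at 26.6 ± 0.285. Tead1 at 18.5 ± 0.243 and Lats2 at 13.4 ± 0.273 FPKM were the lowest. Each neighbouring pair in this order differed by more than the SD of either gene. Under Torin1, Ccn2 reached 214.0 ± 4.39 FPKM and was below Ccn1 alone, at 462 ± 4.54, while Axl at 169.9 ± 1.92 was now also below Ankrd1 at 191 ± 3.80 and Amotl2 at 173 ± 1.23. There Tead1 and Lats2, at 23.2 FPKM each, did not differ beyond their spread.

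A published YAP/TAZ target signature of 22 genes holds 6 of the 10 genes (Ccn1, Ccn2, Ankrd1, Amotl2, Lats2 and Axl), and Ajuba is not in it. Of its 16 other genes, 7 rose, 4 fell and 5 were not called with rapamycin, with a median log2 fold change of 0.10. With Torin1, 13 rose, 2 fell and 1 was not called (median 0.36), and with RapaLink-1 the counts were the same (median 0.34). These medians stand beside 0.00, 0.04 and 0.03 over all genes, of which 27.5%, 39.8% and 38.7% were higher. Upper-quartile scaling gave 10 higher and 3 lower, 14 and 2, and 13 and 1. F3, which encodes the clotting initiator tissue factor, averaged 88.6 ± 1.20 CPM (SD, n = 3) with DMSO, 132 ± 2.37 with rapamycin, 499.9 ± 3.56 with Torin1 and 304 ± 1.75 with RapaLink-1. Its rise with Torin1, 2.50 ± 0.02 (SE, log2), exceeded that of Ccn2. Crim1, for a transmembrane protein that binds BMPs, rose by 0.72, 1.50 and 1.48 with rapamycin, Torin1 and RapaLink-1. Dock5 and Igfbp3, picked out after their values were seen, fell with all 3 compounds, Dock5 with values of -0.15, -0.28 and -0.16 and Igfbp3 of -0.09, -0.44 and -0.87. The calls of Igfbp3 with rapamycin (-0.03) and of Dock5 with RapaLink-1 (-0.02) were lost under upper-quartile scaling. Fjx1 and Tgfb2, picked in the same way, fell with rapamycin (-0.59 and -0.16) and rose with Torin1 (0.42 and 0.52).

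**Figure D4:**
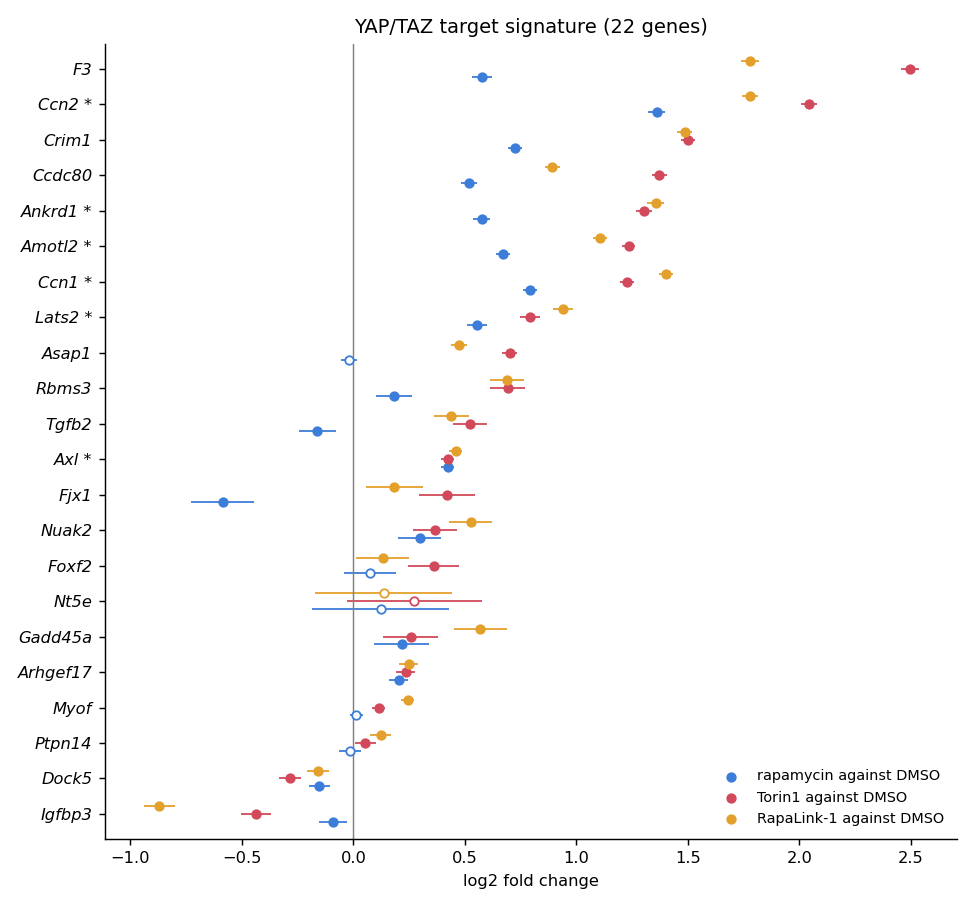
Log2 fold change against DMSO of the 22 signature genes, ordered by the value for Torin1. Asterisks mark the 6 genes followed here, bars are 95% intervals, filled points were called and open points were not. F3 and Ccn2 head the order, and Dock5 and Igfbp3 lie below 0 with all 3 compounds.

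Of 13 other genes often cited as targets, 12 were tested. Rapamycin raised 9, lowered 1 and left 2 not called (median 0.28), while Torin1 and RapaLink-1 each raised 9 and lowered 3 (medians 0.81 and 0.56). Over all genes, 27.5%, 39.8% and 38.7% were higher and 32.2%, 38.3% and 37.9% lower, with medians of 0.00, 0.04 and 0.03. Thbs1, a matrix glycoprotein, rose by 0.75 ± 0.01 (SE, log2), 1.60 ± 0.01 and 1.17 ± 0.01 with rapamycin, Torin1 and RapaLink-1. Cav1, the caveolar coat protein, rose by 0.31, 1.11 and 0.76, and Inhba, an activin subunit, by 0.60, 1.40 and 1.17. Tgm2, a crosslinking enzyme, rose by 0.26, 1.82 and 1.61, though 21.8% of its exonic bases overlap another gene. The falls with the kinase inhibitors included Birc5 (survivin, at -1.54 with Torin1 and -1.23 with RapaLink-1) and Ccnd1 (cyclin D1, at -0.79 and -0.67, with 23.4% of its exonic bases overlapping an antisense gene), both picked out after their values were seen and both genes of the cell cycle. Areg, picked in the same way, was the remaining fall. It was near the floor, with 166 counts over the 12 libraries. Its mean was 0.659 CPM with DMSO, 0.0778 with Torin1 and 0.256 with RapaLink-1.

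The kinases and scaffolds of the Hippo cascade showed no shared direction. Of 18 genes besides Lats2, rapamycin raised 3 and lowered 8, Torin1 raised 6 and lowered 9, and RapaLink-1 raised 8 and lowered 8. Among all genes, 27.5%, 39.8% and 38.7% were higher and 32.2%, 38.3% and 37.9% lower. The medians of the 18 were -0.07, -0.06 and -0.01, and upper-quartile scaling changed them to -0.01, 0.06 and 0.12. Stk3, which encodes MST2, fell, at -0.34 ± 0.03 (SE, log2), -0.38 ± 0.03 and -0.51 ± 0.03 with rapamycin, Torin1 and RapaLink-1. Map4k4, a kinase that also activates LATS, fell as well, at -0.30 ± 0.02, -0.38 ± 0.02 and -0.28 ± 0.02. Mob1a, a LATS cofactor, was lower, at -0.31 ± 0.02, with Torin1, and Wwc2, a KIBRA relative that binds LATS, rose by 0.46 ± 0.02 with Torin1 and 0.52 ± 0.02 with RapaLink-1. Stk4, Sav1 and Mob1b, picked out after their values were seen, also averaged less with Torin1 and RapaLink-1 than with DMSO. In the order DMSO, Torin1 and RapaLink-1, Stk4 averaged 67.1, 51.6 and 57.8 CPM. Sav1 averaged 101, 85.5 and 89.4 CPM, and Mob1b 76.0, 62.8 and 62.2. Lats1, picked in the same way, averaged 112 ± 3.24 CPM (SD, n = 3) with DMSO and 101 ± 4.87 with rapamycin. It averaged 115 ± 2.25 CPM with Torin1 and 120 ± 3.40 with RapaLink-1. Only with RapaLink-1 did its mean exceed that of DMSO by more than either SD. The protocadherin receptor Fat4 and its ligand Dchs1, picked out after their values were seen, moved apart, Fat4 at 0.10 ± 0.04, 0.88 ± 0.03 and 0.50 ± 0.04 and Dchs1 at -0.24 ± 0.04, -0.33 ± 0.04 and -0.40 ± 0.04. Among the 4 relatives of Amotl2 and Ajuba, Amotl1 rose by 0.26 with Torin1 and 0.46 with RapaLink-1, whereas Limd1 fell, at -0.09, -0.23 and -0.14, values that were -0.03 and -0.01 with no call for rapamycin and RapaLink-1 under upper-quartile scaling. Rapamycin raised 0 and lowered 2 of these 4, Torin1 raised 2 and lowered 1, and RapaLink-1 raised 2 and lowered 2, and upper-quartile scaling gave 1 and 0, 3 and 1, and 2 and 1.

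Tead3 and Vgll3 rose with each compound. Of 7 TEAD and Vestigial-like genes besides Tead1, 5 were tested, as Vgll1 had 0 counts and Vgll2 had 6. Rapamycin raised 2 of the 5, Torin1 5 and RapaLink-1 4, with none lowered, where 27.5%, 39.8% and 38.7% of all genes were higher. The rapamycin count is near that share. Tead3, a TEAD factor, averaged 44.0 ± 1.18 CPM (SD, n = 3) with DMSO and 91.4 ± 2.45 with Torin1, and it rose by 0.48 ± 0.03, 1.05 ± 0.03 and 0.81 ± 0.03 (SE, log2) with rapamycin, Torin1 and RapaLink-1. Vgll3, a TEAD cofactor of the Vestigial-like family, went from 132 ± 3.39 CPM with DMSO to 259.6 ± 6.82 with Torin1, and rose by 0.28 ± 0.02, 0.98 ± 0.02 and 0.89 ± 0.02. Vgll4, which represses TEAD targets, rose by 0.24 ± 0.03 with Torin1 and 0.30 ± 0.03 with RapaLink-1.

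**Figure D5:**
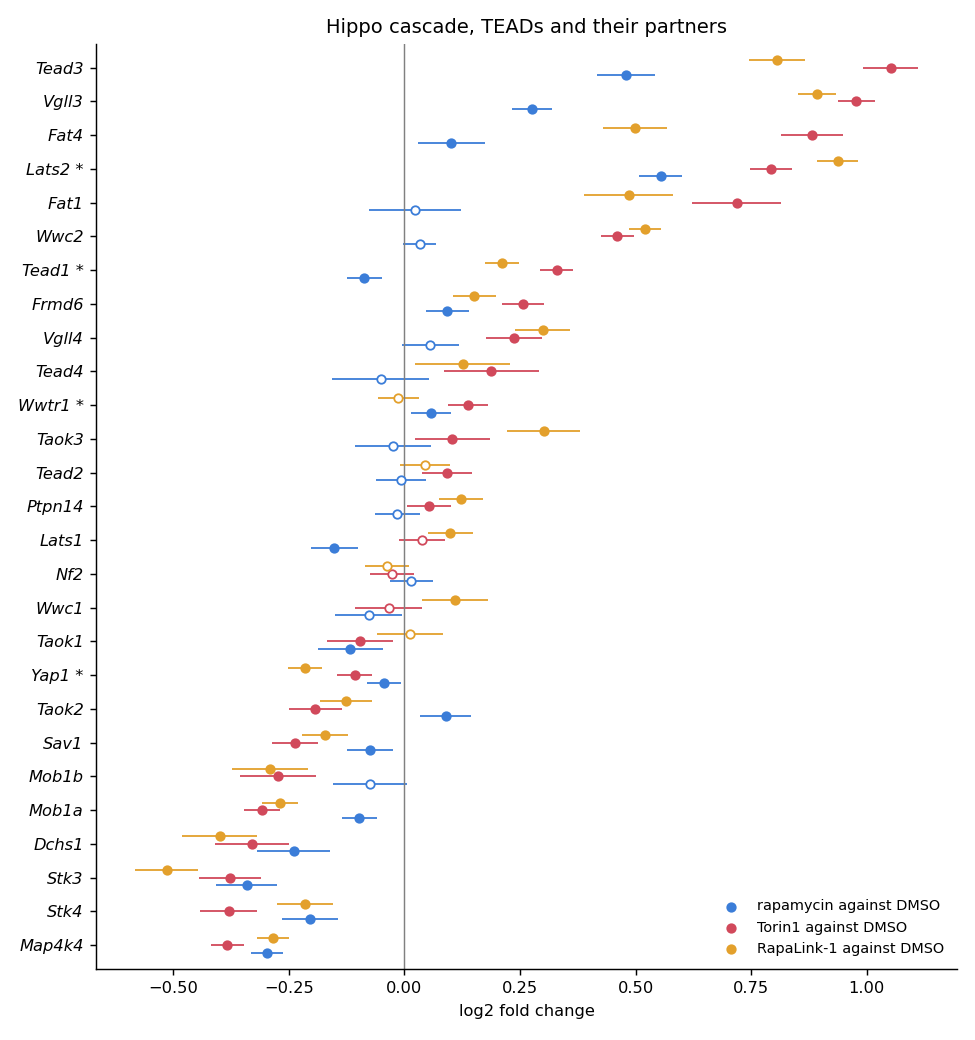
Log2 fold change against DMSO of the Hippo cascade genes, the TEAD genes and their nuclear partners, ordered by the value for Torin1. Asterisks mark genes among the 10, bars are 95% intervals, filled points were called and open points were not. Tead3 and Vgll3 stand at the top, Lats2 is the highest of the genes with an asterisk, and Map4k4 and Stk3 are below 0 with all 3 compounds. Upper-quartile scaling moves all points up by 0.06 to 0.14.

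Of the 4 other CCN genes, Ccn5 rose by 0.74 ± 0.03 (SE, log2), 1.38 ± 0.02 and 0.86 ± 0.02 with rapamycin, Torin1 and RapaLink-1, and Ccn3 by 0.57, 1.85 and 1.07, from 9.64 CPM with DMSO. Ccn4 fell with rapamycin, at -0.26 ± 0.02, and was not called with Torin1 (0.01) or RapaLink-1 (-0.03), where upper-quartile scaling gave called values of 0.14 and 0.10. In all, 3 of these 4 rose and 1 fell with rapamycin, and 2 rose with each of the other compounds. Of all genes, 27.5%, 39.8% and 38.7% were called higher with rapamycin, Torin1 and RapaLink-1, and 32.2%, 38.3% and 37.9% lower. The rise with rapamycin not named above was that of Ccn6, picked out after its values were seen. It went from 0.410 ± 0.0828 to 0.743 ± 0.279 CPM (SD, n = 3), near the floor. The antisense gene Tube1, with 5446 counts against 236 for Ccn6, overlaps 34.0% of its exonic bases. Integrins bind CCN proteins, and of the 6 chains tested of 7 listed, 4 rose with rapamycin, 5 with Torin1 and 4 with RapaLink-1, where 1 fell. These counts are read beside the same shares over all genes. The rise of Itgb2 was from only 0.670 CPM with DMSO, to 2.47 with Torin1 and 3.15 with RapaLink-1. Itgb5 rose by 0.64 ± 0.02, 0.77 ± 0.02 and 0.82 ± 0.02 with the 3 compounds and was the chain with the smallest p each time. Gas6, the ligand of Axl, rose by 0.71 ± 0.15, 1.74 ± 0.13 and 1.70 ± 0.13, but only from 1.60 ± 0.172 CPM (SD, n = 3) with DMSO to 5.36 ± 0.342 with Torin1. The other receptors of its family fell with Torin1, Tyro3 at -0.67 ± 0.05 and Mertk at -0.48 ± 0.07. The 4 genes of that family besides Axl are read beside the same shares over all genes. Of these 4, 2 rose and 2 fell with rapamycin, 1 and 2 with Torin1, and 2 and 2 with RapaLink-1. Upper-quartile scaling left 1 fall with rapamycin, with the other counts as before.

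Which genes followed 9 of the 10 most closely was read from the root mean square (RMS) difference of log2 levels over the 12 libraries. Levels were centred per gene on its DMSO mean, so the difference also holds the size of the change. The search covered 9181 genes averaging 10 CPM or more, without provisional symbols and without the rest of the 10. The closest to Yap1 was Tle3 (RMS difference 0.024), to Wwtr1 Ppp3ca (0.0342) and to Tead1 Abcd3 (0.0321). The closest to Ccn1 was Sfxn3 (0.0455), to Ccn2 the noncoding RNA Meg3 (0.0668), to Ankrd1 Arvcf (0.0585) and to Amotl2 Sbno2 (0.0359). Lats2 was followed most closely by Mgea5 (0.044) and Axl by Scarf2 (0.031). Next to Meg3 for Ccn2 came Cemip, at 0.12. Within the 10, the closest pair was Ccn1 and Ankrd1 (0.119) and the most distant Yap1 and Ccn2 (1.63). Ccn1 and Ccn2 were 0.533 apart.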

How the data were processed

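Whole-number read counts per gene, 1 table per library, were deposited by the authors and used unchanged. Per the file headers they have the featureCounts layout. The submitters' processing notes name the build GRCm38 and the tools featureCounts, Trimmomatic 0.36, STAR 2.5.2b, Subread 1.5.2 and DESeq2. The sources used here do not give strand setting, handling of multiply mapped reads or annotation release, and reads of overlapping genes may thus be shared. Symbols came from GENCODE M21 and named 48970 of 49315 genes.

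Libraries were grouped by the treatment label. Genes were filtered with filterByExpr, scaled with TMM and tested with edgeR 4.0.16 (R 4.3.3) in a robust quasi-likelihood fit of all 12 libraries with group as the only term (8 residual degrees of freedom), for all 6 pairs of groups. Benjamini-Hochberg adjustment covered all 15917 genes, and genes with adjusted p under 0.05 were called. Tests are two-sided. An exact permutation test of 3 against 3 cannot go below 0.1. The members and lists, 114 symbols in all, were chosen with earlier results of these data known. Besides the 10 genes, the text names up to 4 called genes with the smallest p per list and comparison, the genes closest in RMS difference, and those it marks as picked after their values were seen. Outside this rule it names cell type markers for their levels, listed genes with too few counts, signature genes holding the core, and overlapping genes. Replicate pairs gave chi-square over degrees of freedom of 1.33 to 1.99, so none looked deposited more than once. The fit was checked on simulated counts. Alternatives were RLE or upper-quartile factors, no filter or a mean of at least 5 CPM, a replicate block, only the groups compared, each replicate left out and DESeq2 1.42.0. The gene closest to Ajuba is not reported here.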

Additional observations from a re-analysis of the deposited data

How the results depend on the processing

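The 10 genes in 6 comparisons gave 60 log2 fold changes, and 48 of them kept direction and call under every alternative, among them all 21 of the 7 targets against DMSO. Over 780 values under alternatives, 736 kept both, 20 lost the call, 7 gained one and 17 changed sign. The changes of sign were all within 0.13 of 0 and concerned Yap1, Wwtr1 and Axl. With upper-quartile factors Yap1 was 0.0180 for rapamycin and 0.0191 for Torin1 against DMSO and 0.00104 for Torin1 against rapamycin. Wwtr1 was then 0.124 for RapaLink-1 against DMSO and 0.00316 against rapamycin. With genes of a mean of at least 5 CPM, Yap1 was 0.0133 for rapamycin and Wwtr1 0.0724 for RapaLink-1, both against DMSO. The latter ran from -0.0467 to 0.00216 with single replicates left out, turning positive without DMSO replicate 1. Axl in Torin1 against rapamycin was -0.00703 with RLE factors, -0.00503 with no filter, -0.00464 with only these groups and -0.0108 with DESeq2, and it ran from -0.0287 to 0.0114 with single replicates left out. The cause was not tested. Against DMSO, at least 8 of the 10 genes were called with rapamycin and at least 9 with Torin1 and with RapaLink-1 under each alternative. Replicate numbers did not pair the samples. For this, the group mean of each gene was taken off its log2 CPM, and the remaining deviations were correlated between libraries. Those of same-numbered libraries correlated at -0.04 to 0.06 over 18 pairs, and 4 of 12 samples correlated best with their own number. With the replicate block, 10, 10 and 9 of the 10 genes were called against DMSO, and no call changed. Upper-quartile factors split all genes into 5481 higher and 4061 lower for rapamycin against DMSO, where TMM gave 4381 and 5127. They gave 7640 and 4999 for Torin1 (TMM 6332 and 6090) and 7629 and 4823 for RapaLink-1 (TMM 6165 and 6036).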
